A study of Mus musculus with 48 samples.

Results

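The interferon response genes described here are 39 mouse genes that interferon treatment induces in many cell types. They were listed by symbol and followed in BCR/ABL-transformed 32D cells through the first hours after C/EBPα was switched on. Of the 39, 37 had a probe set annotated to that gene alone, and the brightest such probe set over all arrays stood for each gene. The Isg15 probe set is annotated to a second gene too and is not reported, and Ifi44 was not analysed here. The statistical test took in 36 of the 37, among 12756 genes tested and 18193 genes with a probe set of their own. Ifih1 was too dim to be tested. The members were sorted by role into signalling and transcription factors (5 tested), sensors of RNA and other nucleic acids (4), antiviral effectors (14), GTPases (8) and antigen presentation genes (5).

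32D is an interleukin-3-dependent mouse myeloid progenitor line, and all cultures here also expressed the BCR/ABL oncoprotein. The vector line carried the empty retroviral vector MigRI. The WT line carried wild-type C/EBPα-ER, in which the myeloid transcription factor C/EBPα is joined to an estrogen receptor hormone-binding domain that 4-hydroxytamoxifen (4-HT) activates. The K298E line carried the fusion with a mutation that the labels describe as abolishing DNA binding, and the Δ(177-191) line carried a deletion that the labels describe as abolishing interaction with CDK2 and CDK4. Each line was sampled before 4-HT (0 h) and at 6, 9 and 12 h after it, with 3 Affymetrix MOE430_2 arrays at each time, which makes 48 arrays in 16 groups. The labels name triplicates and, elsewhere, separate experiments, without tying the replicate numbers to either. Each construct is represented by 1 line, so the p-values speak for the spread of these arrays and not of independent lines. All lines received 4-HT and none was sampled untreated at a later time, so an effect of 4-HT, of time in culture and of the construct cannot be told apart within a line.

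Median signals of the arrays ran from 11 to 19, the share of probe sets at 0 from 0.324% to 3.40%, and the 3' to 5' ratio of the Gapdh controls from 0.715 to 0.880. The number of arrays limits the precision. Esr1, the gene that contributes the hormone-binding domain, had group means of 14.0 to 18.7 in the vector line, 2107 to 2475 in WT, 860.3 to 1439 in K298E and 3263 to 4017 in Δ(177-191) cells, as the labels say. Of 7 progenitor markers, Ptprc, Spi1, Csf2rb and Il3ra were well detected in every group, whereas no group mean exceeded 15.7 for Kit or 9 for Cd34. Mpo had group means of 160 and 385 in WT cells at 9 and 12 h, and none above 27.7 elsewhere. These are bulk measurements, in which fewer cells of a type and less RNA per cell cannot be told apart.

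Interferons bind cell surface receptors whose JAK kinases phosphorylate STAT proteins. After type I interferon, STATs including STAT2 join IRF9 and bind the interferon stimulated response element (ISRE) in target promoters. After interferon gamma, STAT dimers bind the gamma activated site (GAS), and IRF1, itself an interferon target, adds to the response. The induced genes detect foreign RNA, block viral replication, attack the vacuoles of intracellular pathogens and supply the machinery that loads peptides on MHC class I molecules. Many of them are also transcribed at a low tonic level without infection.

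Promoters were read from RefSeq for assembly GRCm38.p6, from 250 bases before to 50 bases after each annotated start, and 30 of the 39 members had such a window. The ISRE core, searched on both strands as TTTC, any 2 bases and TTTC, or as GAAA, any 2 bases and GAAA, was in the windows of 16 of these 30 (53.3%), against 3.99% of 27025 genes with a window. The GAS letters TTCNNNGAA, which read the same on both strands in their fixed letters, were in 9 of 30 (30%), against 9.55%. The ISRE core was in 5 of 6 GTPase windows, 7 of 13 antiviral effector windows, 2 of 3 sensor windows, 1 of 4 signalling windows and 1 of 4 antigen presentation windows. Such a match is a description of the letters and not a measured binding site. Sequences of 150 bases up to the start are shown for 7 members that recur in the results, with matches in capitals. Igtp and Irgm2, neighbouring GTPase genes, both hold a GAS followed by an ISRE core close to the start. Gbp2, B2m and Bst2 hold ISRE cores, in Bst2 as 2 overlapping matches that run into a GAS. Irf1 and Psmb8 hold a GAS without an ISRE core, and the Irf1 window shown is the first of a pair.
Igtp (chr11:58199406-58199555, plus strand): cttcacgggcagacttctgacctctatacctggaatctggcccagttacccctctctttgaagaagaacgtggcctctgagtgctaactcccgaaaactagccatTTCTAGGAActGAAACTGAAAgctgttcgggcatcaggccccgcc
Irgm2 (chr11:58214827-58214976, plus strand): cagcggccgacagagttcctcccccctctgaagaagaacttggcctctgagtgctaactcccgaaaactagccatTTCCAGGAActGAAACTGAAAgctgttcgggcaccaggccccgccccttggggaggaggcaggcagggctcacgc
Gbp2 (chr3:142620513-142620662, plus strand): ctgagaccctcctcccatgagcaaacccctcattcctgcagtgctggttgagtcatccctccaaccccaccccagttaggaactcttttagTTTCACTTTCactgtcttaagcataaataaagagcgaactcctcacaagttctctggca
B2m (chr2:122147537-122147686, plus strand): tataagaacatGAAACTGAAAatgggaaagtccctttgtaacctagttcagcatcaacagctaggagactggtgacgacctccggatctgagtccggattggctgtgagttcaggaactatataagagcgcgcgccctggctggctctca
Bst2 (chr8:71537473-71537622, minus strand): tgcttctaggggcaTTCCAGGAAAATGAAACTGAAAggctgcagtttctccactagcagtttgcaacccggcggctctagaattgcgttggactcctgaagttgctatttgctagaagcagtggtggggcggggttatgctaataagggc
Irf1 (chr11:53769864-53770013, plus strand): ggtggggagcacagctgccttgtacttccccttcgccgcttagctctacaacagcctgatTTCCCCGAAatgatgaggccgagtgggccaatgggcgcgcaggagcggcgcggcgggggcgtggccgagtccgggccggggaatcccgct
Psmb8 (chr17:34198045-34198194, plus strand): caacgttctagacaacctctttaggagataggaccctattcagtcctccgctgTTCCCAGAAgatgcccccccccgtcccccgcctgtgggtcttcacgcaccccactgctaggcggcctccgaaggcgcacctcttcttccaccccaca

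The members ranged from the signal floor to very bright probe sets, and the dim ones were sensors, antiviral effectors and GTPases. In 8 of the 37 no group mean exceeded a signal of 32, a bound taken after the values were seen. By role these were 2 of 5 sensors (Ifih1 and Dhx58), 4 of 14 antiviral effectors (Oasl2, Ifit3, Ifit1 and Mx1), 2 of 8 GTPases (Iigp1 and Gbp6), and none of the 5 signalling and 5 antigen presentation genes. The highest group mean was 10.3 for Ifih1, a cytoplasmic sensor of long double-stranded RNA, 16.7 for Oasl2, 18 for Ifit3 and 22 for Ifit1. To enter the test, 1 of the 16 group means had to exceed 4.087 on the log2(signal + 3) scale, a signal of 14. Of the 36 members tested, 22 met this in all 16 groups. Gbp2, Gbp6, Oasl2 and Zbp1 met it through Δ(177-191) groups alone and Ifit3 through 1 WT group, so these 5 entered the test through the group in which they were high. Where any of them was called, the count is also given over the other 31, and their own values are given without a test. Rtp4 and Ifit1, which stay among these 31, entered through vector and Δ(177-191) groups alone. Differences below are on the log2(signal + 3) scale, which understates the changes of such dim genes.

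**Figure D1:**
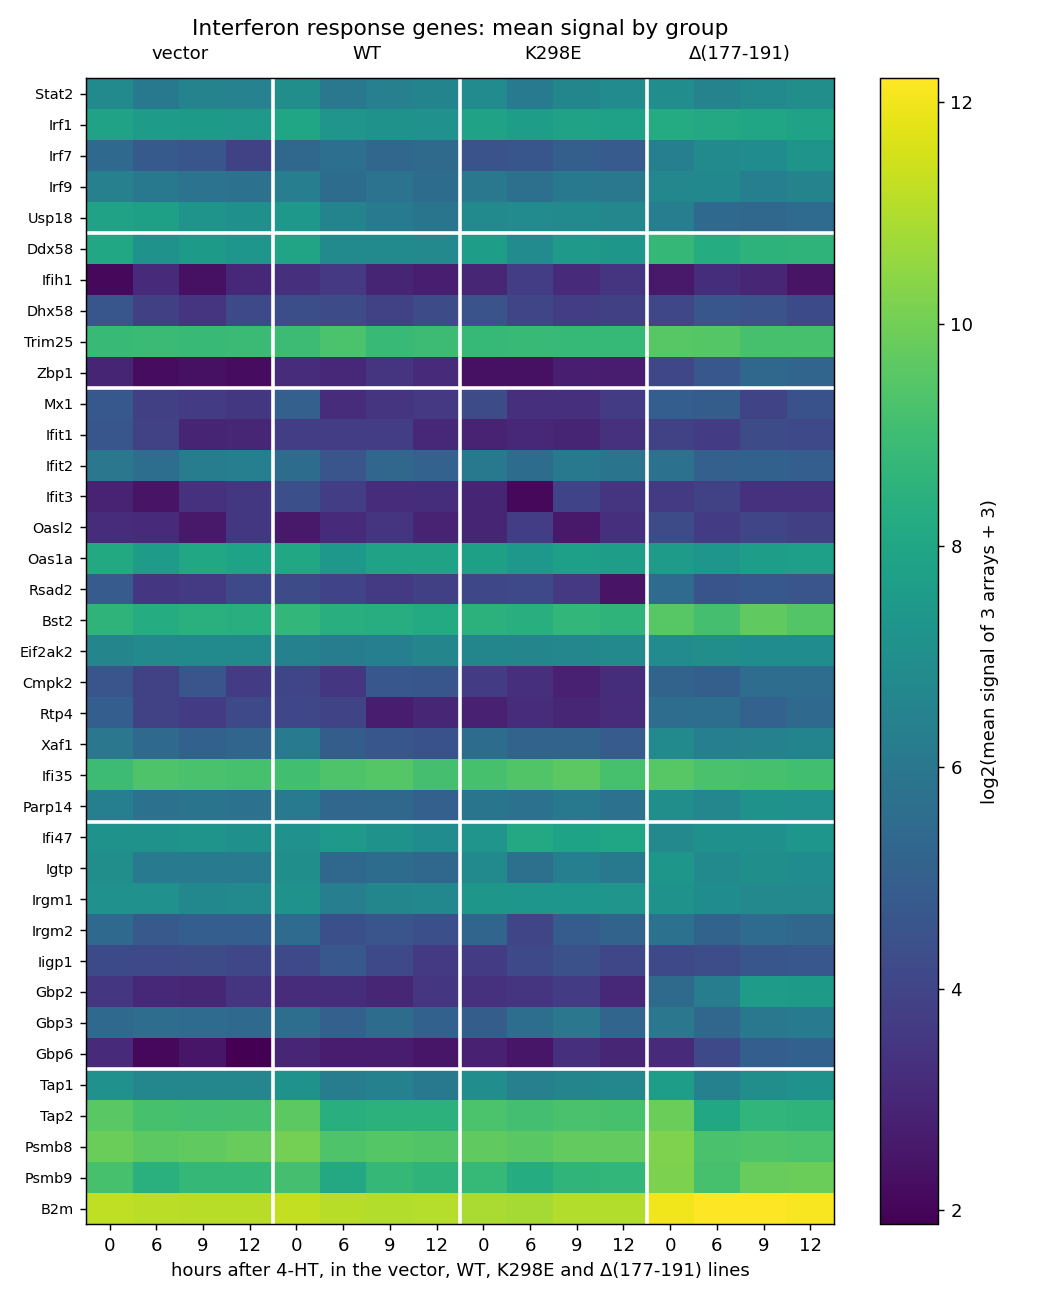
Mean signal of 3 arrays for the 37 members (rows, ordered by role, with white lines between roles) in the 16 groups (columns, hours after 4-HT within each line), coloured as log2(mean signal + 3). Ifih1, with no group mean above 10.3, is dark across every column, and B2m is brightest in the 4 Δ(177-191) columns; colours compare groups along a row, since signals of different probe sets are not comparable.

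At 12 h after 4-HT, interferon response genes had fallen in the vector line and in WT cells, they had fallen or risen in Δ(177-191) cells, and few differed from 0 h in K298E cells. In limma, with p-values adjusted over all 27167 probe sets tested and a threshold of 0.05, 10 members fell and 1 rose in the vector line (backgrounds over all genes tested 9.77% lower and 7.71% higher). In WT cells 15 fell and none rose (backgrounds 16.2% and 14.8%). In K298E cells 2 fell and 1 rose (1.3% and 1.03%), and in Δ(177-191) cells 10 fell and 4 rose (18.3% and 12.2%). Without the 5 members that entered the test through 1 line, 10 of 31 fell and 2 rose in Δ(177-191) cells, and the counts of the other lines were the same. The 10 vector falls include Ifit1, which entered through vector and Δ(177-191) groups alone. As a share of the 36, falls exceeded the background in every line, on 2 genes in K298E cells, and rises lay below it in vector and WT cells. Over the 31, rises lay below it in Δ(177-191) cells (6.45%). The median change of the 36 came to -0.42 for the vector line, -0.54 for WT, -0.15 for Δ(177-191) and -0.03 for K298E, against -0.04, -0.07, -0.05 and -0.01 over all genes tested, and over the 31 it was -0.18 for Δ(177-191). The 8 genes that fell in both the vector line and WT cells, which share no arrays, were Ddx58, Igtp, Irf1, Irf9, Parp14, Psmb9, Tap2 and Usp18; they make up 8 of 10 vector falls and 8 of 15 WT falls.

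**Figure D2:**
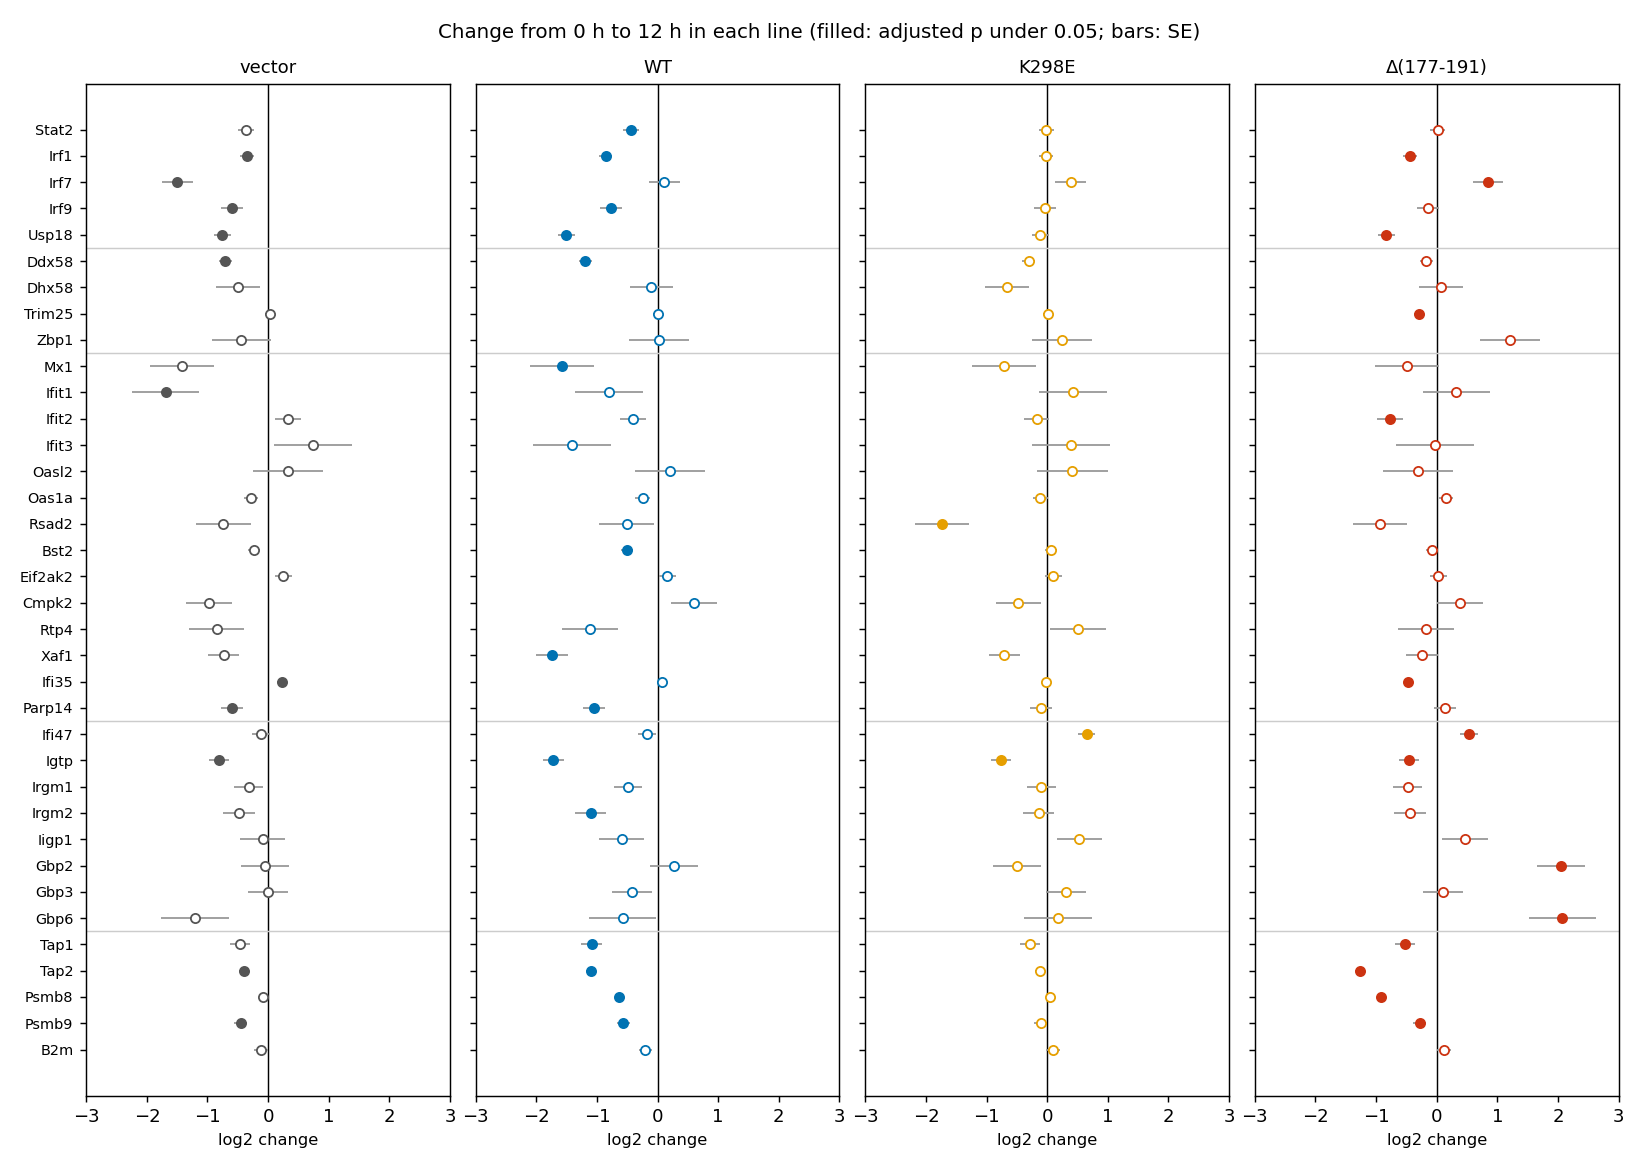
Change from 0 h to 12 h in each line for the 36 members tested, in log2(signal + 3), with points at the model estimate, bars of 1 standard error and filled points at adjusted p under 0.05; grey lines separate the roles. In the WT panel 15 points are filled and all lie below 0, whereas the K298E panel has 3 filled points; Gbp2 and Gbp6, filled in the Δ(177-191) panel, entered the test through that line.

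Falls were counted at 6 h, the earliest time sampled, as well. At that time 11 members fell and 1 rose in the vector line (backgrounds 12% and 8.41%), 18 fell and 2 rose in WT (19% and 13.5%), 7 fell and 1 rose in K298E (7.02% and 5.44%), and 11 fell and none rose in Δ(177-191) cells (18.3% and 12.3%). Median centring gave 6 calls in the vector line at 6 h, and leaving out replicate 1, 2 or 3 of every group gave 7 to 10 there, 16 to 21 in WT, 6 to 7 in K298E and 6 to 10 in Δ(177-191) cells. Another view, which uses no p-value, asked for all 9 treated arrays of a line to lie below all 3 of its 0 h arrays. This held for 15 of 36 members in the vector line (background 10.7%), 17 in WT (13.5%), 11 in Δ(177-191) (13.3%) and 1 in K298E cells (3.29%). The opposite order, all 9 above, held for Ifi35 in the vector line (7.97%), for none in WT (10.7%), for Gbp3 in K298E (2.26%) and for Irf7, Ifi47 and Gbp2, the last of which entered the test through these cells, in Δ(177-191) cells (8.47%). Igtp was the 1 member whose treated arrays lay below the 0 h arrays in K298E cells, and it did so in the other lines too.

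Among the signalling genes, Stat2, the STAT that partners IRF9, dipped at 6 h in every line. Its signals at 0 h were 101, 116 and 111 in vector, 135, 117 and 121 in WT, 116, 116 and 107 in K298E, and 122, 133 and 109 in Δ(177-191) cells. At 6 h they were 68, 71 and 49, then 54, 75 and 57, then 67, 70 and 68, and 99, 80 and 85 in the same order of lines, so every 6 h array lay below every 0 h array of its line. The change at 6 h was -0.79 ± 0.13 (SE; adjusted p = 1.07e-05) for vector, -0.98 ± 0.13 (6.01e-08) for WT, -0.70 ± 0.13 (0.000134) for K298E and -0.45 ± 0.13 for Δ(177-191) cells, all past the threshold. With the next brightest probe set of Stat2 the vector and K298E falls did not pass. By 12 h the WT change was -0.44 ± 0.13 (adjusted p = 0.00784), and the vector change of -0.36 ± 0.13 had an adjusted p of 0.0543. The K298E and Δ(177-191) changes at 12 h were -0.01 and 0.01.

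Irf1, a transcription factor that drives many of the GTPase and antigen presentation genes, fell furthest in WT cells. WT signals were 245, 273 and 220 at 0 h and 128, 123 and 152 at 12 h, with no overlap. The 12 h change was -0.86 ± 0.11 (adjusted p = 7.01e-08) in WT, -0.43 ± 0.11 (0.00294) in Δ(177-191), -0.35 ± 0.11 (0.0309) in vector and -0.02 ± 0.11 (0.982) in K298E cells. Irf9, the DNA-binding partner of STAT2, fell by 0.76 ± 0.18 (adjusted p = 0.001) in WT and by 0.59 ± 0.18 (0.0218) in vector cells on the log2 scale. Its changes in K298E (-0.03) and Δ(177-191) cells (-0.14) did not pass.

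Irf7, which amplifies type I interferon production, went in different directions in different lines. Its signals in vector cells were 37, 43 and 37 at 0 h and 14, 9 and 13 at 12 h. In WT they were 32, 46 and 33 at 0 h and 30, 52 and 40 at 12 h, and in K298E 21, 10 and 28, then 33, 22 and 21. In Δ(177-191) cells they were 79, 76 and 82, then 139, 156 and 140. The vector and Δ(177-191) ranges at the 2 times did not overlap, whereas the WT and K298E ranges did. The 12 h change was -1.50 ± 0.25 (adjusted p = 1.99e-05) in vector and 0.85 ± 0.25 (0.00884) in Δ(177-191) cells, against 0.11 ± 0.25 in WT and 0.39 ± 0.25 in K298E cells, neither past the threshold. The Δ(177-191) call was lost whichever of replicates 1, 2 and 3 was left out. The vector call passed in every setting tried, with no second probe set of Irf7 to try.

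Usp18, a protease that removes ISG15 from proteins and restrains type I interferon receptor signalling, was lower at 12 h in 3 lines. Its signals went from 228, 223 and 226 to 138, 124 and 136 in vector cells and from 171, 172 and 154 to 57, 57 and 55 in WT cells. They went from 69, 75 and 83 to 32, 44 and 49 in Δ(177-191) cells. In K298E cells they were 98, 106 and 113 at 0 h and 91, 101 and 101 at 12 h. The groups overlapped in K298E cells and not in the other lines. The changes were -0.75 ± 0.14 (adjusted p = 7.72e-05) in vector, -1.51 in WT and -0.83 ± 0.14 (5.65e-06) in Δ(177-191) cells, and -0.11 in K298E cells.

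**Figure D3:**
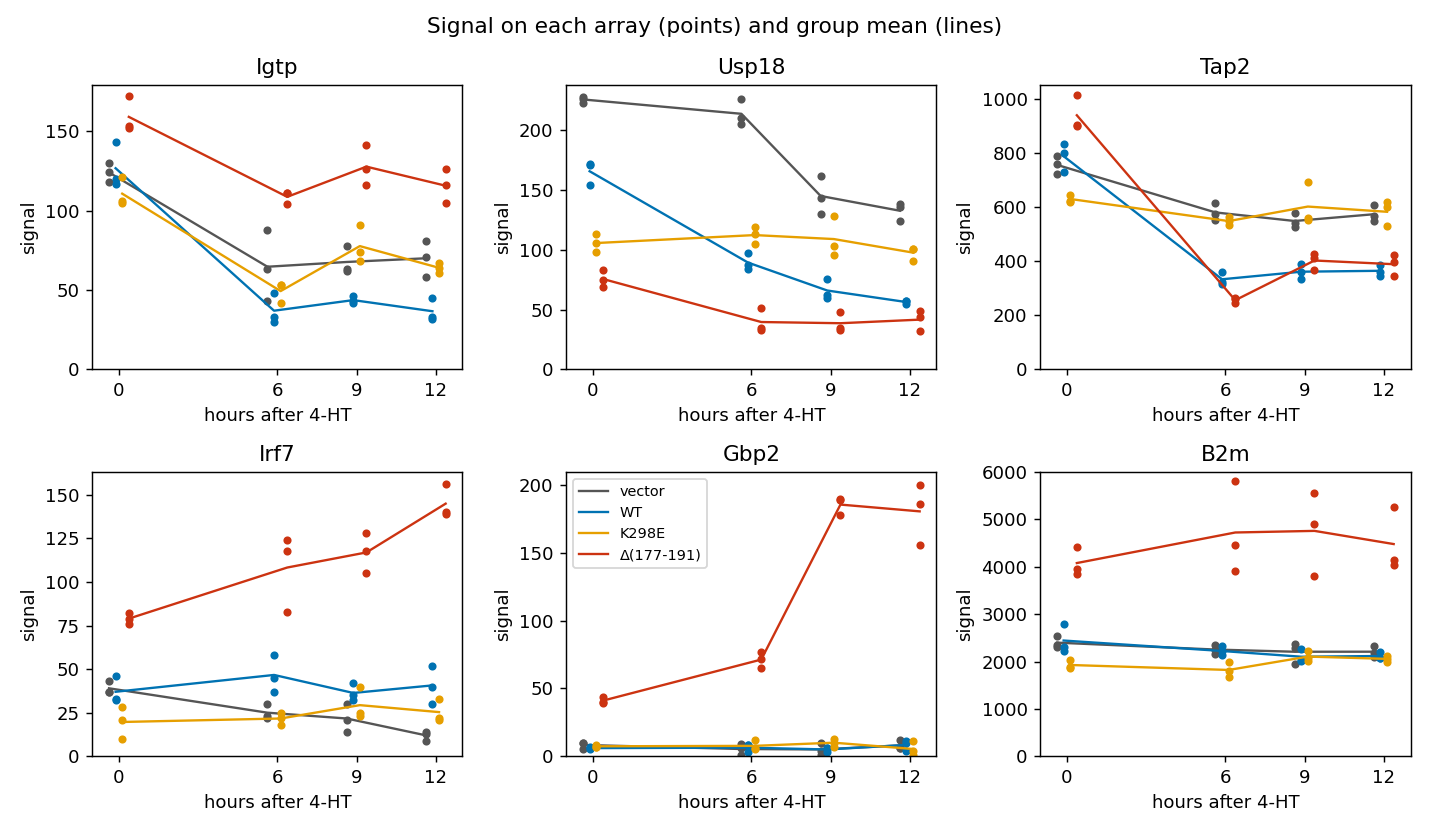
Signal on each array (points) and group means (lines) against hours after 4-HT for Igtp, Usp18, Tap2, Irf7, Gbp2 and B2m, with the 4 lines in 4 colours and the points of each line set slightly apart along the time axis; every signal axis starts at 0. Irf7 ended at 139 to 156 in Δ(177-191) cells and at 9 to 14 in vector cells, and Gbp2 ended at 156 to 200 in Δ(177-191) cells and stayed at 13 or below in the other lines.

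Among the sensors, Ddx58, which encodes the RNA sensor RIG-I, had signals of 261, 243 and 272 in vector cells at 0 h and 141, 166 and 166 at 12 h. In WT cells they were 247, 247 and 225, then 93, 113 and 104. It fell by 0.71 ± 0.11 (adjusted p = 2.63e-06) in vector and by 1.19 in WT cells on the log2 scale, and the changes of -0.17 in Δ(177-191) and -0.31 in K298E cells did not pass. All 9 treated Δ(177-191) arrays still lay below every 0 h array of that line. The next brightest, dimmer probe set of Ddx58 fell there at 12 h (-0.72, adjusted p = 0.0318). Trim25, the ubiquitin ligase that acts on RIG-I, fell by 0.30 ± 0.08 (adjusted p = 0.00251) in Δ(177-191) cells and passed in no other line, with 12 h changes of 0.03 in vector and 0.01 in K298E cells. The fall was lost under median centring and without replicate 3. The next brightest of its 3 probe sets gave -0.29 and passed, and the dimmest gave 0.22 and did not. Neither Dhx58 nor Zbp1, a sensor of Z-form nucleic acids, passed in any line at 12 h. Zbp1 signals of 1 to 12 in the vector line and of 9 to 53 in Δ(177-191) cells lie in the dim range.

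Of the 14 antiviral effectors, 2 fell and 1 rose in vector (backgrounds 9.77% and 7.71%) and 4 fell in WT (16.2%) at 12 h. In K298E cells 1 fell (1.3%) and in Δ(177-191) cells 2 fell (18.3%). Over the 12 effectors that did not enter through 1 line, the Δ(177-191) falls (16.7%) and the vector rise (8.33%) were near their backgrounds. Bst2, or tetherin, which holds budding virions at the cell surface, had WT signals of 424, 408 and 418 at 0 h and 276, 308 and 293 at 12 h, a change of -0.51. Parp14, an ADP-ribosyltransferase, fell by 1.06 in WT and by 0.60 in vector cells. Xaf1, an interferon-induced regulator of apoptosis, had WT signals of 56, 73 and 81, then 12, 21 and 25, a change of -1.74 ± 0.26 (adjusted p = 6.81e-07), but its next brightest probe set, itself dim, gave 0.48 for the same comparison. Mx1, a GTPase that blocks influenza viruses, fell by 1.58 ± 0.53 (adjusted p = 0.0213) in WT cells from a group mean near 30. Ifit1, an effector that binds viral RNA, fell by 1.69 ± 0.56 in vector cells in the same dim range. It entered the test through vector and Δ(177-191) groups alone.

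Ifi35, an interferon-induced leucine zipper protein, rose in vector and fell in Δ(177-191) cells. Its signals in the vector line rose from 480, 540 and 474 to 600, 572 and 577, a change of 0.23 ± 0.07 (adjusted p = 0.0301). In Δ(177-191) cells they fell from 712, 763 and 746 to 548, 555 and 502, a change of -0.47 ± 0.07 (2.24e-06). WT and K298E changes were 0.07 and -0.01. The vector rise was lost with its next brightest probe set and under median centring, and the Δ(177-191) fall passed in every setting tried. Ifit2 fell in Δ(177-191) cells by 0.77, from 54, 51 and 47 to 34, 27 and 25. Rsad2, or viperin, was the effector that fell in K298E cells (-1.73 ± 0.45, adjusted p = 0.0279), in a dim range, and its next brightest probe set gave -0.51. The protein kinase R gene Eif2ak2 had 12 h changes of 0.25 (vector), 0.16 (WT), 0.10 (K298E) and 0.03 (Δ(177-191)), none past the threshold.

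Among the GTPases, Igtp, an immunity-related GTPase that acts on pathogen vacuoles, was the 1 member that fell in all 4 lines at 12 h. Its signals at 0 h were 118, 124 and 130 in vector, 117, 120 and 143 in WT, 106, 105 and 121 in K298E, and 153, 152 and 172 in Δ(177-191) cells. At 12 h they were 71, 81 and 58, then 45, 33 and 32, then 61, 67 and 64, and 126, 116 and 105 in the same order. No 12 h array reached the 0 h arrays of its line. The changes were -0.81 ± 0.17 (adjusted p = 0.000412), -1.72 ± 0.17 (3.55e-11), -0.76 ± 0.17 (0.00562) and -0.45. Its neighbour Irgm2, which shares the GAS and ISRE core spacing shown above, fell by 1.11 in WT cells, from 41, 46 and 39 to 21, 15 and 18. Irgm2 did not pass in the other lines at 12 h, and in K298E cells it fell at 6 h (-1.22 ± 0.26).

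Gbp2, a guanylate-binding protein that attacks pathogen vacuoles, was detected in Δ(177-191) cells. Its signals there were 40, 44 and 39 at 0 h, 65, 77 and 72 at 6 h, 178, 189 and 190 at 9 h, and 156, 200 and 186 at 12 h. On the 36 arrays of the other lines they lay between 1 and 13. The 12 h change in Δ(177-191) cells was 2.06 ± 0.40, and the next brightest probe set gave 2.28. Gbp6 signals in the same cells were 6, 1 and 10 at 0 h and 42, 34 and 18 at 12 h, a change of 2.07 ± 0.56, and did not exceed 14 on any array of the other lines. Ifi47, an immunity-related GTPase, rose in both mutant lines. Its signals went from 155, 139 and 156 to 311, 283 and 152 in K298E cells, where 1 of the 12 h arrays lay within the 0 h range, and from 105, 107 and 103 to 157, 158 and 146 in Δ(177-191) cells. The changes were 0.65 ± 0.14 (adjusted p = 0.0054) and 0.54, against -0.11 in vector and -0.17 in WT cells. At 6 h the K298E signals were 250, 300 and 285, a change of 0.88 ± 0.14 that passed in every setting tried, with no second probe set to try. Iigp1, Gbp3 and Irgm1 did not pass in any line at 12 h.

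Of the antigen presentation genes, Tap1 and Tap2 form the transporter that brings peptides to MHC class I, and Psmb8 and Psmb9 are subunits of the immunoproteasome that makes these peptides. All 4 fell in WT cells (background 16.2%) and all 4 fell in Δ(177-191) cells (18.3%) at 12 h, and 2 of the 4 (Tap2 and Psmb9) fell in vector cells (9.77%). None of the 5 antigen presentation genes changed in K298E cells at 12 h in this test; at an unadjusted p under 0.05, 5 of all 36 members did. Tap2 signals at 0 h were 722, 758 and 788 in vector, 834, 731 and 799 in WT, 646, 620 and 624 in K298E, and 901, 904 and 1013 in Δ(177-191) cells. At 12 h they were 607, 566 and 548, then 346, 387 and 361, then 531, 599 and 618, and 399, 422 and 346. Each WT and Δ(177-191) array at 12 h thus lay below every vector and K298E array, although at 0 h the Δ(177-191) arrays were the highest and the WT arrays overlapped those of the vector line. The Tap2 changes were -0.40 in vector, -1.10 ± 0.08 (adjusted p = 2.04e-14) in WT, and -1.27 ± 0.08 (2.88e-16) in Δ(177-191) cells, and -0.11 in K298E cells did not pass. In Δ(177-191) cells the Tap2 change was already -1.86 ± 0.08 at 6 h, with signals of 260, 263 and 245.

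Psmb8 had 12 h changes of -0.09 in vector and 0.04 in K298E cells, neither past the threshold. It fell by 0.64 in WT cells, from 1089, 1054 and 1048 to 668, 666 and 704. It fell by 0.91 ± 0.07 (adjusted p = 8.83e-15) in Δ(177-191) cells, from 1195, 1146 and 1227 to 619, 631 and 642. The next brightest, much dimmer probe sets of Tap1 and Psmb8 did not pass in either line (for Psmb8 -0.71 in WT and -0.64 in Δ(177-191) cells). Psmb9 was lowest at 6 h in all 4 lines, at 329, 347 and 349 in vector, 314, 281 and 225 in WT, 275, 368 and 284 in K298E, and 571, 595 and 577 in Δ(177-191) cells. Its change at 6 h passed in all 4 lines (-1.08 in WT, -0.97 in Δ(177-191), -0.78 in vector and -0.55 in K298E cells). These calls held in every setting tried, with no second probe set of Psmb9 to try. B2m, the light chain of MHC class I, did not pass in any line at 12 h, with changes of -0.12 ± 0.12 (vector), -0.20 ± 0.12 (WT), 0.09 ± 0.12 (K298E) and 0.13 ± 0.12 (Δ(177-191)). Its next brightest probe set, nearly as bright, did fall in WT cells (-0.40, adjusted p = 0.00195) and passed in no other line.

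These counts moved with the processing. With the log2 values of each array centred on their median, the 12 h calls numbered 4 for vector, 9 for Δ(177-191) and 1 for K298E cells, while array weights gave 17 in vector cells. Without replicate 1, 2 or 3 of every group the counts ran from 4 to 10 in vector, 13 to 15 in WT, 0 to 2 in K298E and 7 to 13 in Δ(177-191) cells. The share of all genes called was not computed under other settings, here, at 6 h or below. Measured from the median of all probe sets tested, the members' median 12 h change hardly moved under centring. It was -0.384 in vector, -0.03 in K298E and -0.127 in Δ(177-191) cells either way, and -0.463 without and -0.465 with centring in WT cells.

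Setting each line's change against that of the vector line asks how far the 2 changes differed, with 1 line per construct. The 3 comparisons share the 6 vector arrays of 0 and 12 h. Of the 36 members, 5 were lower and 1 higher in WT (backgrounds 3.38% and 3.83%), 3 were higher and none lower in K298E (3.38% and 2.24%), and 6 were higher and 5 lower in Δ(177-191) cells (9.97% and 12.4%). Without the 5 members that entered through 1 line, 4 of 31 were higher (12.9%) and 5 lower (16.1%) in Δ(177-191) cells. Both of these shares were close to their backgrounds. The median relative change was -0.17, 0.31 and 0.30, against -0.03, 0.02 and -0.04 over all genes tested. Lower in WT were Igtp (-0.91 ± 0.24, adjusted p = 0.0116), Usp18 (-0.75 ± 0.20, 0.0116), Tap2 (-0.71 ± 0.12, 2.91e-05), Psmb8 (-0.56) and Ddx58 (-0.49). None of these 5 passed under median centring, which left 1 member higher and none lower; without replicate 1, 2 or 3 of every group 3 or 4 members were called. Tap2 (-0.87 ± 0.12, adjusted p = 1.7e-07) and Psmb8 (-0.83 ± 0.09, 3.81e-09) were lower in Δ(177-191) cells too, beside Ifit2 (-1.10 ± 0.30, 0.00624), Ifi35 (-0.70) and Trim25 (-0.33).

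Irf7 had a positive relative change in every construct line, at 1.61 ± 0.36 (adjusted p = 0.00203) for WT, 1.88 ± 0.36 (0.000501) for K298E and 2.35 ± 0.36 (1.96e-06) for Δ(177-191). The vector arrays common to all 3 comparisons had fallen to 14, 9 and 13. In K298E cells the other higher members were Ifi47 (0.77 ± 0.20, adjusted p = 0.0174) and Usp18 (0.65 ± 0.20, 0.0481). In Δ(177-191) cells they were Parp14 (0.73), Ifi47 (0.65) and Ddx58 (0.54), beside Gbp6 (3.28 ± 0.79) and Gbp2 (2.11 ± 0.56), which entered the test through these cells. With the next brightest probe sets Ddx58, Gbp2, Psmb8 and Trim25 lost their calls in Δ(177-191) cells, and under median centring 7 members passed there and 1 in K298E cells. Without replicate 1, 2 or 3 of every group 5 to 8 and 0 to 2 did. Stat2, Irf1, Irf9 and B2m passed in none of these comparisons, and the nearest was Irf1 in WT cells at -0.51 ± 0.16 (adjusted p = 0.054).

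Comparing the mean change over 6, 9 and 12 h between WT and each mutant, in which the vector arrays cancel, tested the difference between lines directly, with 1 line per construct. Against K298E, 11 of 36 members changed to a lower level in WT and none to a higher one (backgrounds 9.12% and 8.45%), with a median of -0.54 against -0.04 over all genes tested. The lowest were Usp18 (-1.23 ± 0.16, adjusted p = 1.62e-07), Xaf1 (-1.13 ± 0.30, 0.00629) and Tap2 (-1.02 ± 0.10, 5.65e-11). The next brightest probe set of Xaf1 gave 0.73, and its call was lost without replicate 2 or 3. The others were Parp14, Igtp, Ddx58, Irf1, Psmb8, Ifi47, Bst2 and Psmb9. They came from all 5 roles: 2 signalling genes, 1 sensor, 3 antiviral effectors, 2 GTPases and 3 antigen presentation genes. For Irf1 the difference was -0.72 ± 0.13 (adjusted p = 8.27e-05). For Irf9 it was -0.58 ± 0.21 (0.0576), for Stat2 -0.36 ± 0.15 (0.107), for Irf7 -0.25 ± 0.29 (0.68) and for B2m -0.23 ± 0.13 (0.315), none past the threshold. The next brightest probe set of B2m did pass (-0.35, adjusted p = 0.0315). Under median centring 4 of the 36 passed, and without replicate 1, 2 or 3 of every group between 6 and 11 did. Usp18 and Tap2 passed in every setting tried, though neither has a second probe set to try.

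Against Δ(177-191), 10 members changed to a lower level in WT and 4 to a higher one (backgrounds 11.1% and 14.3%). Without the 5 members that entered through 1 line, 8 of 31 were lower (25.8%) and 4 higher (12.9%). The lowest of these were Xaf1 (-1.25 ± 0.30, adjusted p = 0.00147), Igtp (-1.20) and Parp14 (-0.87), followed by Ddx58, Irf9, Irf1, Stat2 and Oas1a. The next brightest probe set of Xaf1 gave 0.59, and this call too was lost without replicate 2 or 3. Gbp6 (-2.20 ± 0.64) and Gbp2 (-1.61 ± 0.46) entered the test through Δ(177-191) cells. The 4 in the other direction were Ifi35 (0.62 ± 0.09, adjusted p = 2.33e-07), Tap2 (0.30), Trim25 (0.27) and Psmb8 (0.26). All 5 signalling genes had negative differences, and Irf1 (-0.50 ± 0.13, adjusted p = 0.004), Irf9 (-0.57 ± 0.21, 0.0468) and Stat2 (-0.49 ± 0.15, 0.0145) passed. The Irf9 call was lost in most of the other settings, among them each replicate left out and the replicate block, that of Stat2 under median centring, with its next brightest probe set and without replicate 1 or 3, and that of Irf1 under median centring and without replicate 1 or 2. The antigen presentation genes had no lower call on their main probe sets. The next brightest probe set of B2m, nearly as bright, was lower (-0.54, adjusted p = 0.00041). Under median centring 7 members passed, and without replicate 1, 2 or 3 of every group between 5 and 9 did.

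Before 4-HT the lines already differed in these genes, and most in Δ(177-191) cells. At 0 h, 15 members were higher and 3 lower in Δ(177-191) than in vector cells (backgrounds 13.2% and 15.3%), with a median of 0.50 against -0.01 over all genes tested. Without the 5 members that entered through 1 line, 13 of 31 were higher (41.9%) and 3 lower (9.68%), with a median of 0.35. In K298E cells 1 was higher and 6 lower (3.02% and 3.46%), with a median of -0.32. Of these 6, Rtp4 entered the test through vector and Δ(177-191) groups alone. In WT cells none passed (2.92% and 2.81%); at an unadjusted p under 0.05, 5 did, and 1 passed under each of 4 other settings. All 5 antigen presentation genes were higher in Δ(177-191) cells, as were 4 of 12 antiviral effectors, 2 of 3 sensors, 2 of 5 signalling genes and none of the 6 GTPases among the 31. B2m had signals of 4426, 3958 and 3853 there at 0 h, and 2344, 2542 and 2309 in vector, 2218, 2316 and 2795 in WT, and 2024, 1886 and 1870 in K298E cells. Its difference of 0.76 ± 0.12 (adjusted p = 9.13e-07) passed in every setting tried. Psmb9 was higher by 0.95, at 1120, 1154 and 1154 against 605, 586 and 574. Bst2 was higher by 0.95 too, at 778, 693 and 754 against 361, 423 and 368. None of the Δ(177-191) arrays overlapped the vector arrays for these 3 genes.

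Irf7 (0.97 ± 0.25, adjusted p = 0.00295) was higher at 0 h in Δ(177-191) cells by a margin like those of Psmb9 and Bst2. Gbp2 (1.99 ± 0.40) and Zbp1 (1.39 ± 0.49) entered the test through this line. Trim25 (0.63), Ddx58 (0.73), Tap1 (0.60), Ifi35 (0.57) and Irf1 (0.42 ± 0.11, adjusted p = 0.00391) were higher too. Stat2 (0.14 ± 0.13) and Irf9 (0.29 ± 0.18) did not pass. Against this direction, Usp18 was lower (-1.54 ± 0.14, adjusted p = 2.56e-12), at 69, 75 and 83 against 228, 223 and 226, as were Oas1a, an enzyme that makes the activator of RNase L (-0.62 ± 0.12, 8.5e-05), and Ifi47 (-0.43 ± 0.14, 0.0214). Oas1a signals were 184, 189 and 176 against 276, 278 and 293. Usp18 (-1.08 ± 0.14, adjusted p = 5.03e-07), Irf7 (-0.98 ± 0.25, 0.0135), Oas1a, Psmb9 and Ddx58 were lower in K298E cells. Rtp4 had the lowest difference there (-2.42 ± 0.46), but it entered the test through vector and Δ(177-191) groups and no K298E group. Rtp4 signals were 10, 1 and 1 against 28, 28 and 30, close to the floor. Under median centring 10 members passed in Δ(177-191) and 3 in K298E cells, and without replicate 1, 2 or 3 of every group 13 to 16 and 1 to 3 did.

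Macrophage markers differed between the lines at 0 h, and their sum was highest in Δ(177-191) cells. The summed signal of 5 such genes at 0 h ran from 2871 to 2970 in Δ(177-191), from 1880 to 2021 in WT, from 1544 to 1640 in K298E and from 1039 to 1154 in vector cells. Of the 5, Cd68 had a mean at 0 h of 1675 in Δ(177-191), 948 in WT, 456.7 in K298E and 410 in vector cells. In the same order Adgre1 had means of 1139, 930.7, 1093 and 641.3, so on this gene K298E lay close to Δ(177-191). Csf1r had means of 80, 52.3, 40 and 40.7. C1qa did not exceed 2 in any group mean and Mrc1 did not exceed 19. Sums of plasmacytoid dendritic markers (75 to 172 over all arrays, of which Tcf4 made up most), lymphoid markers (14 to 76) and fibroblast markers (14 to 83) were low in every line. Of the 7 progenitor markers at 0 h, Ptprc (mean 2978 against 1758) and Spi1 (1321 against 478.3) were higher in Δ(177-191) than in vector cells and Il3ra was lower (165.7 against 205.3), while Csf2rb stood at 1417 against 1361, Mpo at 10 against 14.7, and Kit and Cd34 near the floor. Over time Cd68 fell along with members. Its mean went from 410 at 0 h to 199.7 at 12 h in the vector line (-1.03), from 948 to 412.7 in WT (-1.19) and from 1675 to 908.3 in Δ(177-191) cells (-0.88), all past the threshold, and from 456.7 to 528.7 in K298E cells, which did not pass. Adgre1 changed by -0.27 in vector and 0.95 in Δ(177-191) cells, both past the threshold, and by 0.14 in WT and 0.21 in K298E cells, neither past it. Mpo, the granule peroxidase of myeloid cells, rose in WT cells from a mean of 16.3 at 0 h to 385 at 12 h (4.33), and no group mean of the other lines exceeded 27.7. The part of these markers in the results for the interferon response genes was not tested.

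**Figure D4:**
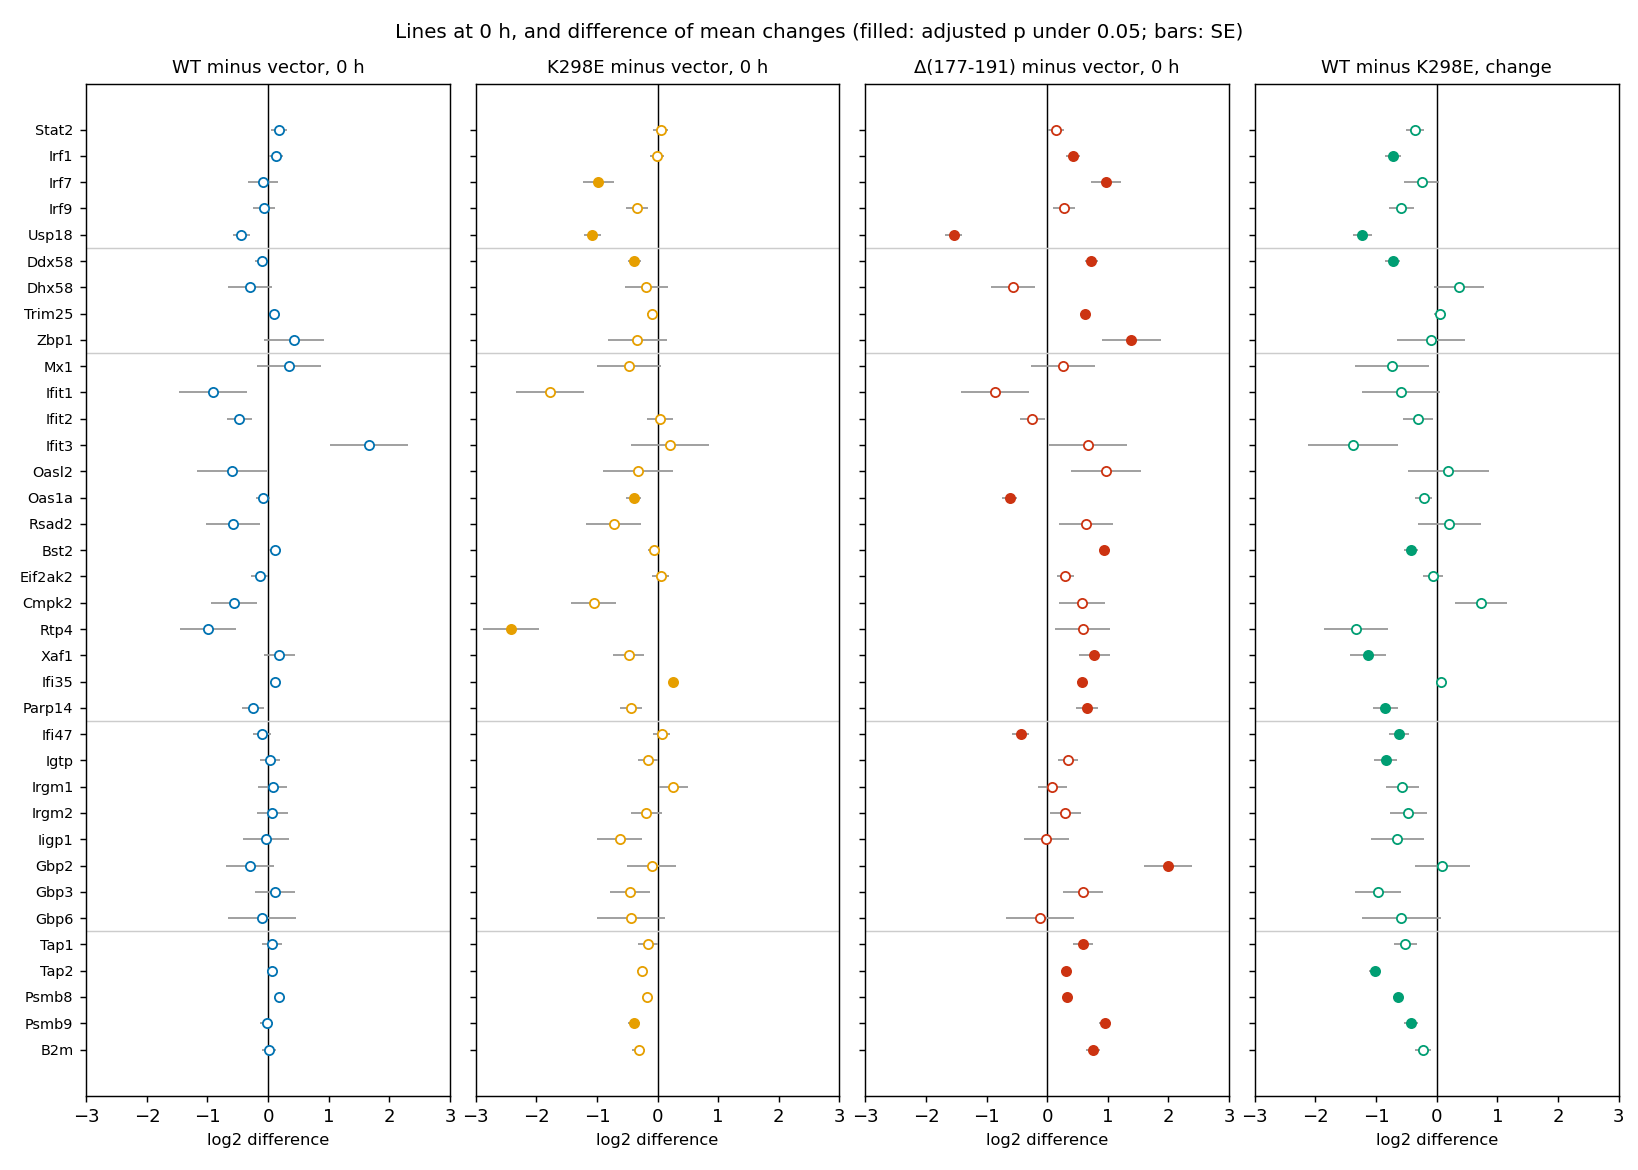
Differences for the 36 members tested in log2(signal + 3): each construct line minus the vector line at 0 h (first 3 panels), and the mean change over 6, 9 and 12 h in WT minus that in K298E cells (last panel); bars are 1 standard error and filled points have an adjusted p under 0.05. In the Δ(177-191) panel 15 filled points lie above 0, among them Gbp2 and Zbp1, which entered the test through that line, and 3 below, no point is filled in the WT panel, and the 11 filled points of the last panel all lie below 0.

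The rest of the pathway was read from a list of 102 further genes, of which 89 had a probe set and 76 were tested. Which groups carried each of the 76 into the test was not checked, so their counts include any that entered through 1 line. Of 7 interferon genes with a probe set, Ifnb1 alone was tested, with group means of 10 to 16.7 and no call, and no group mean of the other 6 exceeded 12.7. At 12 h, 20 of the 76 (26.3%, background 9.77%) fell and 1 rose in vector, 30 (39.5%, background 16.2%) fell and 2 rose in WT, and 3 (3.95%, background 1.3%) fell and 1 rose in K298E cells. For Δ(177-191) cells the falls numbered 15, a share of 19.7% near the background of 18.3%, and the rises 14 (18.4%, background 12.2%). Of 8 receptor and kinase genes, 5 fell in vector and 5 in WT cells, and none passed in K298E cells. The chemokine gene Ccl5 had the lowest change in vector and WT cells. Its signals went from 51, 59 and 52 to 11, 4 and 19 in vector (-2.14 ± 0.29, adjusted p = 5.67e-07) and from 57, 53 and 46 to 9, 3 and 3 in WT cells (-2.86 ± 0.29, 1.77e-10). In Δ(177-191) cells Ccl5 stood at 135, 153 and 153 at 0 h and 218, 217 and 160 at 12 h, a change relative to vector of 2.55 ± 0.42 (8e-06).

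Cxcl10, a chemokine induced by interferon gamma, rose in Δ(177-191) cells from 10, 18 and 2 to 56, 79 and 57, a change of 2.58 ± 0.58, and exceeded 21 on no array of the other lines. Its mean signal over all times was 7.42 in vector, 3.5 in WT and 5.33 in K298E cells. Whether it entered the test through Δ(177-191) groups alone was not checked, so its change is given without a test. Isg20, an interferon-induced exonuclease, fell in every line at 12 h, with changes of -1.80 (vector), -2.44 (WT), -1.03 (K298E) and -1.31 (Δ(177-191)). Sting1, the adaptor of cytosolic DNA sensing, was lowest among the changes of WT relative to vector cells (-1.28 ± 0.25, adjusted p = 0.000432), with signals of 126, 120 and 108, then 65, 67 and 71 in WT and 208, 175 and 202, then 293, 256 and 282 in vector cells. At 0 h, 28 of the 76 were higher (36.8%, background 13.2%) and 7 lower (9.21%, background 15.3%) in Δ(177-191) than in vector cells. The highest was Ikbke, a kinase that activates interferon regulatory factors, at 747, 828 and 938 against 81, 75 and 85 (3.33 ± 0.17, adjusted p = 1.09e-19). The receptor subunit gene Il10rb stood at 379, 404 and 366 against 135, 110 and 112 (1.67 ± 0.09, 2.42e-19). Of the 8 receptor and kinase genes 6 were higher, and Socs1, an inhibitor of JAK kinases, was lower, at 80, 108 and 72 against 257, 258 and 256 (-1.56 ± 0.13, 1.53e-13). Comparing the mean changes, 20 of the 76 (26.3%, background 9.12%) changed to a lower level in WT than in K298E cells and 2 to a higher one, and 21 (27.6%, background 11.1%) and 3 did so against Δ(177-191) cells.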

How the data were processed

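Total RNA from 48 samples (4 lines, 4 times, 3 arrays each) was hybridised to Affymetrix MOE430_2 arrays. The authors deposited linear signal intensities, rounded to integers, from MAS5 according to the submitters' processing notes; the MAS5 version and scaling are not given in the sources used here, and detection calls were not used. Of 45101 probe sets, 64 controls were left out; of the other 45037, GEO's platform annotation names 1 symbol for 34945, several for 932 and none for 9160, with symbols updated from RefSeq. The brightest probe set with 1 symbol represents a gene.

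Signals were taken as log2(signal + 3), 3 being the 20th percentile. With limma 3.58.1 under R 4.3.3, a mean per group (16 groups) was estimated for 27167 probe sets, with variance following the mean, 32 residual degrees of freedom and two-sided tests adjusted by Benjamini and Hochberg over all of them. The script was tested on simulated data. Errors are standard errors of the model. Alternatives were pseudocount, normalization, filter, probe set, arrays in the fit, array weights, replicate block, replicates left out and, added after the data were seen, averaging over times and the same settings for changes at 6 h. Counts over the 31 members that did not enter through 1 line were also added then. Same-numbered arrays did not deviate together, so no pairing was used. The members and lists were chosen with earlier results of these data known. Statistics are given for up to 3 highest and lowest members past the threshold per comparison, the brightest member of each role, and Stat2, Irf1, Irf7, Irf9 and B2m; for other pathway genes, up to 2 each way. Other values are described without that rule.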

Additional observations from a re-analysis of the deposited data

Results flagged for a closer look

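The interferon response genes below stood out because the change of one line after 4-HT differed from that of another by a direct test of the difference in limma (adjusted p under 0.05). Values are differences of changes in log2(signal + 3).

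In the mean change over 6, 9 and 12 h, WT minus K298E, they were Usp18 (-1.23), Xaf1 (-1.13), Tap2 (-1.02), Parp14 (-0.85), Igtp (-0.84), Ddx58 (-0.72), Irf1 (-0.72), Psmb8 (-0.64), Ifi47 (-0.62), Bst2 (-0.43) and Psmb9 (-0.42). In WT minus Δ(177-191) they were Xaf1 (-1.25), Igtp (-1.20), Parp14 (-0.87), Ddx58 (-0.86), Irf9 (-0.57), Irf1 (-0.50), Stat2 (-0.49), Oas1a (-0.42), Psmb8 (0.26), Trim25 (0.27), Tap2 (0.30) and Ifi35 (0.62). Gbp6 (-2.20) and Gbp2 (-1.61) were flagged too, but they entered the test through Δ(177-191) groups alone, so the test is no support for them.

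For the change from 0 h to 12 h relative to vector cells, they were Igtp (-0.91), Usp18 (-0.75), Tap2 (-0.71), Psmb8 (-0.56), Ddx58 (-0.49) and Irf7 (1.61) in WT cells. In K298E cells they were Usp18 (0.65), Ifi47 (0.77) and Irf7 (1.88). In Δ(177-191) cells they were Ifit2 (-1.10), Tap2 (-0.87), Psmb8 (-0.83), Ifi35 (-0.70), Trim25 (-0.33), Ddx58 (0.54), Ifi47 (0.65), Parp14 (0.73), Gbp2 (2.11), Irf7 (2.35) and Gbp6 (3.28). Gbp2 and Gbp6 entered the test through Δ(177-191) groups alone. These 3 sets share the vector arrays, in which Irf7 fell.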

How the results depend on the processing

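Counts of the 36 members called moved with some settings, under which the share of all genes called was not computed. Median centring gave 4 (vector), 1 (K298E) and 9 (Δ(177-191)) for changes at 12 h, 6 for vector at 6 h, 1 (WT), 1 (K298E) and 7 (Δ(177-191)) relative to vector, 3 (K298E) and 10 (Δ(177-191)) at 0 h, and 4 and 7 for WT minus K298E and minus Δ(177-191). Array weights gave 17 for vector at 12 h, 10 for WT relative to vector, and 1 (WT) and 12 (K298E) at 0 h. The arrays of the compared lines alone gave 1 for K298E at 12 h and 1 for WT at 0 h, and a filter at 32 and a pseudocount of 16 each gave 1 for WT at 0 h. The next brightest probe sets gave 7 for Δ(177-191) relative to vector. Averaging over times, added after the data were seen, gave 21 for vector. Without replicate 1, 2 or 3 of every group, which leaves 2 arrays per group, counts ran from 4 to 10 (vector), 13 to 15 (WT), 0 to 2 (K298E) and 7 to 13 (Δ(177-191)) at 12 h, and from 7 to 10 (vector), 16 to 21 (WT), 6 to 7 (K298E) and 6 to 10 (Δ(177-191)) at 6 h. They ran from 3 to 4, 0 to 2 and 5 to 8 relative to vector, from 1 to 3 (K298E) and 13 to 16 (Δ(177-191)) at 0 h, and from 6 to 11 and 5 to 9 for WT minus K298E and minus Δ(177-191). The causes of these shifts were not tested. Of 164 calls on members, 49 passed in every setting that gave a value, and over 2189 recomputations 1871 passed in the same direction, 312 no longer passed and 6 changed sign. A member without a second tested probe set kept its main one under the next brightest setting. For such members that setting repeated the main result, and these counts include the repeats. All 6 used the next brightest probe set: Xaf1 in WT at 6 h (0.39) and 12 h (0.48), in WT minus K298E (0.73) and in WT minus Δ(177-191) (0.59), Ddx58 in WT relative to vector (0.27), and Psmb8 in WT minus Δ(177-191) (-0.11). No call changed sign under quantile normalization or median centring. Centring moved the median change of all probe sets in WT cells at 12 h from -0.07 to 0.13, and the members' relative change in WT cells lay 0.13 below that of all probe sets in either case.

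With the replicate number as a block, 13 members passed in vector and 15 in WT cells at 12 h, 7 in WT relative to vector and 18 in Δ(177-191) cells at 0 h; of the 164 calls 1, that of Irf9 in WT minus Δ(177-191), was lost. The numbers did not pair the arrays: in 0 of 120 pairs of groups did every same-numbered correlation exceed 0.1. Dim members limit the reading: in 8 of 37 no group mean exceeded 32.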
